A study of Mus musculus with 6 samples.

Results

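Genes of the retinoblastoma (RB) pocket proteins and of the E2F transcription factors were examined. Total RNA came from cells sorted as hair follicle stem cells (HFSCs) at postnatal day (PD) 68. The members were chosen by gene symbol, and 10 genes of the 56941 in the count table carry these symbols. They are the pocket proteins Rb1, Rbl1 and Rbl2, the activator E2Fs E2f1, E2f2 and E2f3, the canonical repressors E2f4 and E2f5, and the atypical repressors E2f7 and E2f8. The study asked what changes in HFSCs when the endocytic adaptor Dab2 is lost. There were 3 libraries labelled WT (K14 Cre- Dab2fl/fl) and 3 labelled Dab2-cKO (K14 Cre+ Dab2fl/fl), each named a biological replicate. All mice were females of the strain B6;129S4-Dab2tm1Cpr/J, both genotypes carried the floxed alleles, and tamoxifen was given to both at 75 mg/kg on 5 days. The Cre is driven by the K14 promoter, which is active in basal keratinocytes of the whole skin epithelium and not in HFSCs alone. The cells were sorted for CD34 and α6-integrin, and whether animals were pooled for a library is not given in the sources used here.

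RB and its relatives p107 (Rbl1) and p130 (Rbl2) bind E2F factors and keep the genes of DNA synthesis silent. Cyclin-dependent kinases phosphorylate the pocket proteins in G1, which frees the activator E2Fs to switch on S phase genes. In resting cells p130 and E2F4 sit on these promoters together with the MuvB proteins in the complex called DREAM. In contrast, p107, E2F1 and E2F2 are made mainly in cells that enter the cycle. E2F7 and E2F8 bind DNA without a DP partner and without pocket proteins, and they shut the same genes down later in the cycle. HFSCs rest through telogen and divide briefly when a new hair cycle starts, and the follicle cells they give rise to divide fast through anagen.

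The libraries held 7040032 to 9518564 counts in the WT group and 9374373 to 11696457 in the Dab2-cKO group. Dab2, the targeted gene, went against the labels. Under the WT label it had 327 ± 15.4 normalized counts (counts scaled to a common library size, SD, n = 3), and under the Dab2-cKO label 1375 ± 68.2 (SD, n = 3, log2 fold change 2.08, adjusted p of 3.04e-34 in edgeR). The columns of the second group are named for the floxed alleles, and they were taken as Dab2-cKO from the title of the series. This is a count over the whole gene, not over the deleted part alone. Every direction given here is therefore that of the libraries as labelled. TMM factors, which correct for a few genes taking a large share of a library, lay between 1.11 and 1.21 in WT and between 0.847 and 0.876 in Dab2-cKO. Mitochondrial genes took 13.0% to 14.4% of the counts in WT and 19.1% to 20.3% in Dab2-cKO, and the 100 most abundant genes took 33.1% to 33.9% and 44.5% to 46.6%. With these genes left out of the TMM factors, 6 members were again lower and 1 was higher, and the part of these shares in the members' values was not otherwise tested. Genes were called at an adjusted p under 0.05 in edgeR's quasi-likelihood test, with 32149 genes tested. Of these, 11.5% were lower and 16.8% were higher in the libraries labelled Dab2-cKO, or 3682 and 5387 genes. Scaling moved this split: it was 5561 lower and 4281 higher with upper-quartile scaling, and 11168 lower and 2686 higher with library size alone. The median log2 fold change of all genes was -0.02 with TMM, -0.17 with upper-quartile scaling and -0.45 with library size alone.

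All 10 members were kept by the expression filter. Of them, 6 were lower in the libraries labelled Dab2-cKO (Rb1, Rbl1, E2f2, E2f3, E2f7 and E2f8), against 11.5% of all genes tested. Of the others, 1 was higher (Rbl2), against 16.8% of all genes, and 3 were not called (E2f1, E2f4 and E2f5). The median log2 fold change of the members was -0.63, against -0.02 for all genes tested. In 7 members all libraries labelled Dab2-cKO lay below all those labelled WT, a pattern seen in 17.7% of all genes tested, and in 1 member they lay above, as in 20.6% of all genes. Both atypical repressors were lower, whereas calls within the other roles were mixed or absent. Per kb of exon, the mean of each member in each group was above the 95th percentile of 1562 chemosensory receptor genes (11.7 normalized counts per kb), while the lowest library of E2f7, in Dab2-cKO, was at 11.6. The median of these receptor genes was 4.895 per kb, and no such background was subtracted from the values of the members. With 3 libraries against 3, an exact permutation test on a single gene cannot go below p = 0.1, so the p-values given are those of the fit over all genes. They set the difference between the groups against the spread between libraries within a group, as estimated with the help of the other genes.

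**Figure D1:**
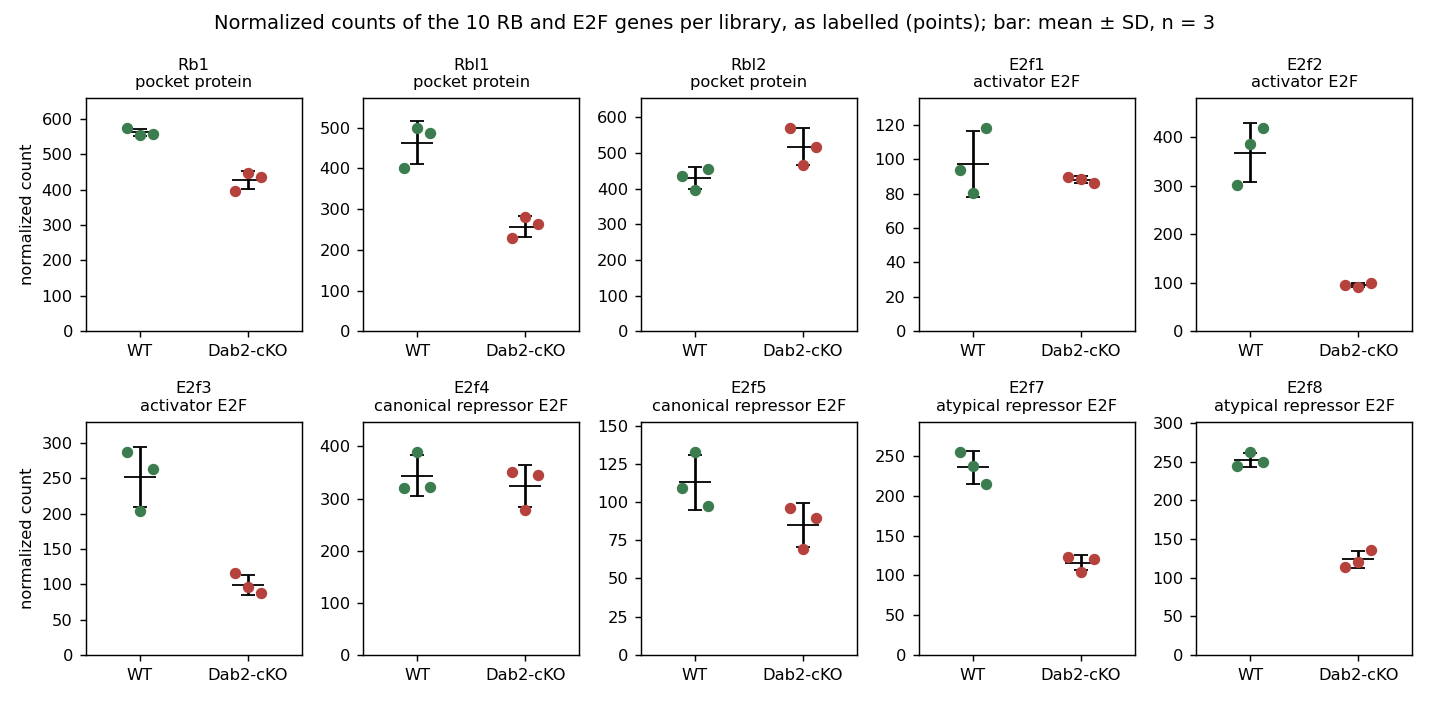
Normalized counts (y axes, from 0) of the 10 members in the 3 libraries labelled WT (green) and the 3 labelled Dab2-cKO (red), with the mean and SD of each group in black. E2f2 lay between 302 and 419 in WT and between 92.1 and 100.4 in Dab2-cKO, while the groups overlapped for E2f1 and E2f4.

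Several members are themselves known E2F targets, so the promoters were searched for the E2F motif. The letters searched were TTTCCCGC, TTTCGCGC, TTTGCCGC and TTTGGCGC on both strands, in the 250 bases before and the first 50 bases after the start of the canonical GENCODE transcript in GRCm39. Such a match was found in 7 of 10 members and in 2.82% of 21667 protein-coding promoters of the same length. Members with a match were Rb1, Rbl1, E2f1, E2f2, E2f3, E2f7 and E2f8. They comprise the 6 members that fell and E2f1, which was not called, whereas Rbl2, E2f4 and E2f5 held no match in this window. Over the protein-coding genes tested, 23.8% of those with the motif were lower and 21.2% higher. Without it, 15.2% were lower and 25.0% higher. The part of the motif in the calls of the members was not tested. The motif of the cell cycle genes homology region (TTTGAA or TTCGAA, both strands) was in 3 members (Rb1, Rbl2 and E2f3) and in 18.7% of promoters, and its matches did not overlap those of the E2F motif. A match is a description of the letters and not a measured binding site. Stretches with matches are printed for 6 members, namely E2f1 and 5 of those that fell, because they carry the E2F letters. They are written 5′ to 3′ on the strand of the gene with the matches in capitals, where a match on the other strand reads as its reverse complement.
E2f2, chr4:135899613-135899634, plus strand, 29 to 50 bases from the start: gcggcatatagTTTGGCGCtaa
E2f1, chr2:154411783-154411812, minus strand, 1 to 30 bases from the start: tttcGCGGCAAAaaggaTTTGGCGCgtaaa
Rbl1, chr2:157046454-157046483, minus strand, from 8 bases before the start to base 22: aagaaggcgatTTTCGCGCgctttgtcgcg
E2f3, chr13:30170047-30170097, minus strand, the 51 bases before the start: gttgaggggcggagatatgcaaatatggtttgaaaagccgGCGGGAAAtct
E2f7, chr10:110581062-110581149, plus strand: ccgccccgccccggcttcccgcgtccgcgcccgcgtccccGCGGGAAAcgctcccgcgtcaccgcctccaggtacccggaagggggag
Rb1, chr14:73563674-73563757, minus strand: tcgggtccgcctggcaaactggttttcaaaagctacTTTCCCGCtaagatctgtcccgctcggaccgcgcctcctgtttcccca

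E2f1 and E2f2 shared the letters TTTGGCGC downstream of their annotated start. E2f3 and E2f7 shared TTTCCCGC on the other strand, 4 bases and 197 bases before the start. E2f1 had 2 matches within its first 25 bases, and the other members with a match had 1 each.

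E2f2 showed the largest difference of the 10 members. E2f2 is an activator that drives quiescent cells into S phase. E2f2 (ENSMUSG00000018983, GRCm39 chromosome 4, 135899585 to 135923368) had normalized counts of 302, 386 and 419 in WT replicates 1 to 3 and of 96.3, 92.1 and 100.4 in Dab2-cKO replicates 1 to 3. The groups were far apart, and E2f2 is one of the members with the E2F letters given above. The means were 369 ± 60.3 and 96.3 ± 4.19 (SD, n = 3 each), 3.84-fold higher in the libraries labelled WT. The log2 fold change was -1.94 (SE 0.13, adjusted p of 2.21e-21 in edgeR).

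E2f3, an activator with a long and a short protein form that counts per gene cannot separate, was also lower. E2f3 (ENSMUSG00000016477, chromosome 13, 30090558 to 30170046) was counted at 287, 204 and 264 in the WT libraries and at 115, 95.5 and 87.2 in the Dab2-cKO libraries. Every WT library was above every Dab2-cKO library, and E2f3 changed by -1.33 on the log2 scale (SE 0.14, adjusted p of 1.86e-12 in edgeR). Of the exon bases of E2f3, 12.1% overlap a gene annotated on the opposite strand.

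E2f1, the founding member of the family, was not called. E2f1 (ENSMUSG00000027490, chromosome 2, 154401326 to 154411812) had normalized counts of 93.5, 80.4 and 118 in the WT libraries and of 89.6, 88.6 and 86.1 in the Dab2-cKO libraries. WT replicate 3 was the highest library and WT replicate 2 the lowest, so the Dab2-cKO libraries lay inside the range of the WT group. No difference was detectable at this depth, with a log2 fold change of -0.15 (95% interval -0.50 to 0.21, adjusted p of 0.637 in edgeR). The interval of E2f1 lay wholly above those of E2f2 (-2.20 to -1.68) and E2f3 (-1.61 to -1.04), but the difference between these genes was not tested. Without WT replicate 3 the log2 fold change of E2f1 was 0.03, and with library size alone it was -0.58 and passed the threshold (adjusted p of 0.00794 in edgeR). Relative to the median of all genes, the value under library size alone was -0.13.

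Neither canonical repressor was called. E2F4, which takes part in DREAM, is the most abundant E2F protein of many resting cells. E2f4 (ENSMUSG00000014859, chromosome 8, 106024243 to 106032003) had normalized counts of 321, 389 and 321 in the WT libraries and of 350, 277 and 346 in the Dab2-cKO libraries. The groups overlapped, and the log2 fold change was -0.08 (95% interval -0.29 to 0.13, adjusted p of 0.654 in edgeR). Without WT replicate 2 it was 0.03, and with library size alone it was -0.51 and passed the threshold (adjusted p of 1.26e-05 in edgeR), or -0.06 relative to the median of all genes.

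E2F5 is the close relative of E2F4 and binds mainly p130. E2f5 (ENSMUSG00000027552, chromosome 3, 14643676 to 14672404) was counted at 109, 133 and 97.4 in the WT libraries and at 96.3, 69.0 and 89.4 in the Dab2-cKO libraries. The groups touched without overlapping, and the log2 fold change of -0.41 (95% interval -0.76 to -0.05) missed the threshold at an adjusted p of 0.0789 in edgeR. The gene was called in 4 of 14 alternatives, and its adjusted p in edgeR ran from 5.76e-05 with library size alone to 1 in the test against a 1.5-fold change. Exons of Rbis on the opposite strand cover 43.4% of the exon bases of E2f5. Rbis moved the other way, up under the Dab2-cKO label (log2 fold change 0.51, adjusted p of 3.06e-05 in edgeR), and the strand setting of the counting is not given in the sources used here.

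Both atypical repressors fell, and by nearly the same amount. E2f7 (ENSMUSG00000020185, chromosome 10, 110581300 to 110623245) had normalized counts of 255, 237 and 215 in the WT libraries and of 123, 105 and 120 in the Dab2-cKO libraries (mean 236 ± 20.3 and 116 ± 9.88, SD, n = 3 each). E2f8 (ENSMUSG00000046179, chromosome 7, 48516176 to 48531452) was counted at 245, 263 and 249.5 in the WT libraries and at 114, 121 and 136 in the Dab2-cKO libraries (mean 252 ± 9.23 and 124 ± 10.9, SD, n = 3 each). In both genes every WT library was far above every Dab2-cKO library. The log2 fold changes were -1.01 for E2f7 (SE 0.13, adjusted p of 2.05e-09 in edgeR) and -1.03 for E2f8 (SE 0.13, adjusted p of 3.87e-10 in edgeR). An annotated gene on the opposite strand, Gm2788, overlaps 20.2% of the exon bases of E2f8. Gm2788 was not called (log2 fold change -0.11, adjusted p of 0.741 in edgeR).

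The pocket proteins moved in different directions, except that Rbl2 also had a negative log2 fold change with library size alone. Rbl1, whose protein p107 accumulates in cycling cells, fell. Rbl1 (ENSMUSG00000027641, chromosome 2, 156987813 to 157046475) had normalized counts of 402, 498 and 488 in the WT libraries and of 228, 279.6 and 263 in the Dab2-cKO libraries. The groups were well apart, with a log2 fold change of -0.86 (SE 0.10, adjusted p of 1.19e-10 in edgeR). Rb1 itself (ENSMUSG00000022105, chromosome 14, 73421113 to 73563507) also fell. Its normalized counts were 573, 555 and 558 under the WT label and 398, 448 and 437 under the Dab2-cKO label. Its groups did not overlap either, and the log2 fold change was -0.40 (SE 0.09, adjusted p of 0.000156 in edgeR). Tested against a 1.5-fold change, Rb1 was not called (adjusted p of 1 in edgeR). Opposite-strand genes overlap 7.43% of its exon bases and 4.63% of those of Rbl1. Those of Rb1 are Lpar6, which fell too (log2 fold change -0.88, adjusted p of 1.89e-07 in edgeR), and Rcbtb2, which rose (0.31, adjusted p of 0.0453 in edgeR). Those of Rbl1 are Gm14277, which was not called (-1.20, adjusted p of 0.113 in edgeR), and Gm75686, for which no value was obtained.

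Rbl2, which encodes the pocket protein p130 of resting cells, was the sole member called higher. Rbl2 (ENSMUSG00000031666, chromosome 8, 91796664 to 91850492) had normalized counts of 435, 395 and 456 in the WT libraries and of 569, 466 and 518 in the Dab2-cKO libraries. The lowest Dab2-cKO library was just above the highest WT library. The log2 fold change was 0.27 (SE 0.09, adjusted p of 0.016 in edgeR), and with library size alone it turned to -0.16, which is 0.29 relative to the median of all genes. The call did not hold in 7 of 14 alternatives. Without Dab2-cKO replicate 1 the log2 fold change was 0.18 (adjusted p of 0.217 in edgeR), without Dab2-cKO replicate 3 it was 0.25 (adjusted p of 0.0554 in edgeR), and without WT replicate 2 it was 0.23 (adjusted p of 0.0737 in edgeR). The exons of Rbl2 share 44.4% of their bases with genes on the opposite strand, mainly Aktip, which was lower in the libraries labelled Dab2-cKO (log2 fold change -0.26, adjusted p of 0.0297 in edgeR).

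**Figure D2:**
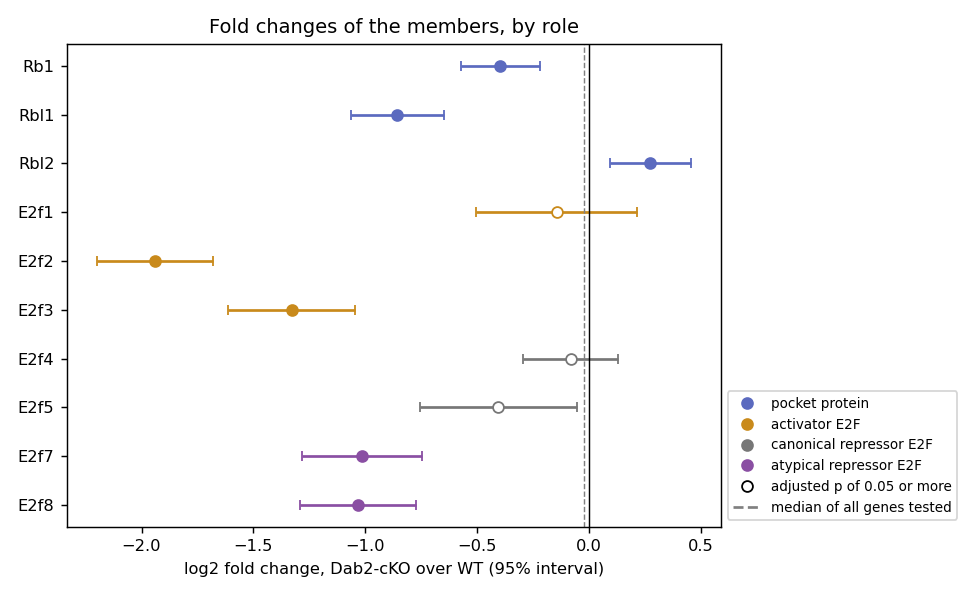
Log2 fold changes of Dab2-cKO over WT (x axis) with 95% intervals for the 10 members, coloured by role. Open points did not pass an adjusted p of 0.05, and the dashed line is the median of all genes tested. E2f2 at -1.94 and E2f3 at -1.33 lie far to the left of the third activator, E2f1, at -0.15.

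To contrast the roles without any scaling between libraries, the counts per kb of exon were summed within each role and divided by one another within each library. Such ratios are scores over the members and were given no test. The log2 ratio of activators to canonical repressors was 0.76, 0.45 and 1.06 in the WT libraries and -0.35, -0.09 and -0.43 in the Dab2-cKO libraries. Activator transcripts thus outnumbered those of the canonical repressors in each WT library and were outnumbered in each Dab2-cKO library. The mean difference was -1.05, with SDs of 0.30 and 0.18 (n = 3 each). The log2 ratio of activators to pocket proteins was 0.02 ± 0.12 under the WT label and -0.86 ± 0.09 under the Dab2-cKO label (SD, n = 3 each), again without overlap.

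Measured against the atypical repressors, the activators differed less. This log2 ratio was 1.05 ± 0.20 and 0.85 ± 0.14 under the WT and Dab2-cKO labels (SD, n = 3 each), and the groups overlapped. The log2 ratio of atypical to canonical repressors was -0.29 ± 0.14 and -1.14 ± 0.17 (SD, n = 3 each) without overlap. Between canonical repressors and pocket proteins the log2 ratio was -0.74 ± 0.18 and -0.57 ± 0.21 (SD, n = 3 each), and the groups overlapped.

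**Figure D3:**
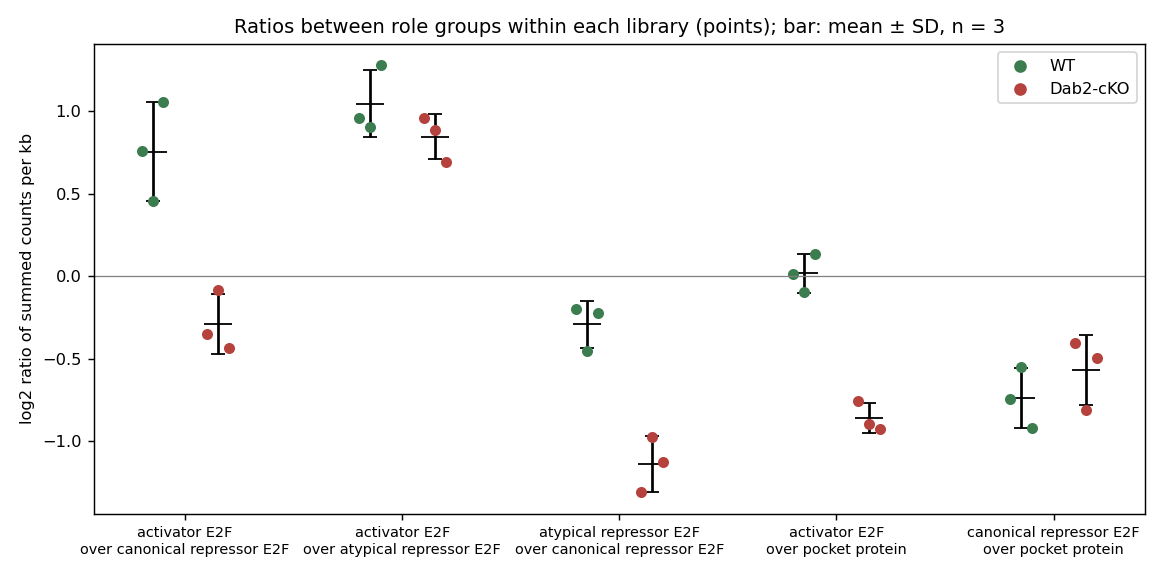
Log2 ratios of summed counts per kb of exon between role groups (y axis) within each library labelled WT (green) or Dab2-cKO (red), with the mean and SD in black (n = 3). The ratio of activators to canonical repressors is between 0.45 and 1.06 in WT and between -0.43 and -0.09 in Dab2-cKO.

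Shares within each role were likewise described without a test. E2f2 made up 43.0%, 55.9% and 50.3% of the activator counts per kb in the WT libraries and 29.0%, 29.9% and 32.9% in the Dab2-cKO libraries. E2f1 made up 19.3%, 16.8% and 20.5% in the WT libraries and 39.0%, 41.6% and 40.8% in the Dab2-cKO libraries. E2f1 was thus the least abundant activator per kb in each WT library and the most abundant in each Dab2-cKO library, although its own normalized count was not called. Among the pocket proteins, the share of Rbl1 was 43.1% ± 3.43 under the WT label and 30.6% ± 2.79 under the Dab2-cKO label, and that of Rbl2 was 24.8% ± 1.96 and 38.3% ± 4.29 (SD, n = 3 each). The share of Rb1 was 32.0% ± 1.92 and 31.1% ± 1.51. E2f7 made up 36.6% ± 2.31 and 36.7% ± 2.77 of the atypical repressors under these labels (SD, n = 3 each).

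**Figure D4:**
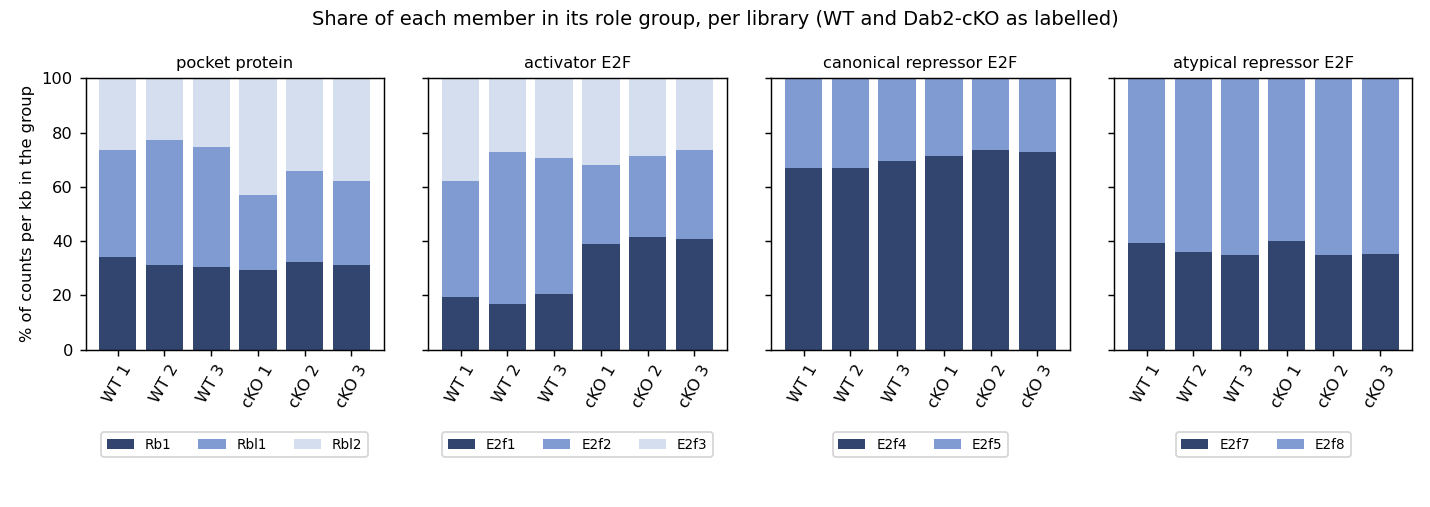
Share of each member in the counts per kb of exon of its role group (y axis, %), for each library (x axis; cKO stands for Dab2-cKO). E2f1 takes 16.8% to 20.5% of the activator counts in WT and 39.0% to 41.6% in Dab2-cKO, while E2f7 and E2f8 keep nearly the same shares.

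In levels per kb of exon, the order of the members differed between the groups. In WT the highest were E2f2 (73.7 ± 12.1 normalized counts per kb), Rbl1 (63.0 ± 7.20) and E2f4 (59.5 ± 6.81), and neighbours among these overlapped. They were followed by Rb1 (46.6 ± 0.81), E2f3 (46.4 ± 7.91) and E2f8 (45.3 ± 1.66), which overlapped with one another and lay below E2f4, by Rbl2 (36.2 ± 2.61), and by E2f5, E2f1 and E2f7 at 26.2 to 28.3. In Dab2-cKO the highest was E2f4 (56.2 ± 7.05), then Rbl2 (43.7 ± 4.36), and each was apart from its neighbour. The gap below E2f4 was slight, with its lowest library at 48.02 and the highest library of Rbl2 at 48.01. Rb1 (35.4 ± 2.18) and Rbl1 (35.0 ± 3.59) overlapped, E2f1 (25.5 ± 0.53) came next, and E2f8, E2f5, E2f2 and E2f3 followed at 18.3 to 22.2. E2f7 had the lowest mean in both groups and overlapped with E2f1 in WT (SD, n = 3 throughout).

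Around the members, 31 other genes of the network were listed, of which 30 were in the table and 29 were tested. Of these 29, 14 were lower and 3 were higher in the libraries labelled Dab2-cKO, with a median log2 fold change of -0.22, against 11.5% lower and 16.8% higher of all genes tested. With library size alone the counts were 23 and 1, against 34.7% lower and 8.35% higher of all genes. Among the dimerization partners, Tfdp1 (DP1, with which the activators bind DNA) fell from 616 ± 11.6 to 384 ± 26.7 normalized counts (log2 fold change -0.68, adjusted p of 8.35e-10 in edgeR). Its relative Tfdp2 was not called (0.01, adjusted p of 0.947 in edgeR). E2f6, a repressor that acts without pocket proteins, was at 184 ± 3.28 and 217 ± 23.5 and was not called (adjusted p of 0.153 in edgeR).

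Of the 8 cyclins and kinases that act on the pocket proteins, 6 were lower and 1 was higher. Of all genes tested, 11.5% were lower and 16.8% were higher. Cdk4, the partner of the D cyclins, fell from 562 ± 12.2 to 307 ± 36.6 normalized counts (SD, n = 3 each, log2 fold change -0.88). Ccnd2, the most highly counted D cyclin here, fell by 0.62 on the log2 scale, and Ccne2 (cyclin E2) fell by 0.93 on that scale. Ccnd3 (cyclin D3) was higher, at 211 ± 19.1 and 331 ± 10.9 (SD, n = 3 each, log2 fold change 0.65, adjusted p of 1.34e-06 in edgeR). Cdk6 was not called.

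Of the 6 inhibitors of these kinases that were tested, 1 was higher and 5 were not called, and 1 of 6 is near the 16.8% of all genes that were higher. Cdkn1c (p57) rose, with normalized counts of 56.3 ± 3.31 under the WT label and 109.8 ± 16.5 under the other (SD, n = 3 each, log2 fold change 0.96, adjusted p of 3.24e-05 in edgeR). The log2 fold changes of Cdkn1a, Cdkn1b, Cdkn2b, Cdkn2c and Cdkn2d lay between -0.16 and -0.01. Cdkn2a was too low to be tested.

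Among the MuvB proteins and their partners, Mybl2 (B-Myb) fell by 1.08 and Foxm1 by 1.34 on the log2 scale, both of which join MuvB in late cycle. The MuvB subunits Lin9, Lin37 and Lin52 were not called, and Rbbp4 was lower by 0.22 on the log2 scale. Of 6 corepressors, 4 were lower (Hdac1, Hdac2, Suv39h1 and Kdm5a), against 11.5% of all genes tested. Sin3b alone was higher (log2 fold change 0.22, adjusted p of 0.0466 in edgeR). That 1 of 6 is near the 16.8% of all genes that were higher. Log2 fold changes of the 6 ranged from -0.90 for Suv39h1 to 0.22 for Sin3b.

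Among 27 textbook E2F target genes, 26 were lower and 1 was not called, against 11.5% of all genes lower. Their median log2 fold change was -0.77. Ccne1, Ccne2 and Mybl2 are also among the network genes above, so they count as lower in both tallies. Uhrf1, a factor for the upkeep of DNA methylation, changed most, from 793 ± 92.8 to 213 ± 27.7 normalized counts (SD, n = 3 each, log2 fold change -1.89). Ccna2 (cyclin A2) was 3.04-fold higher in the libraries labelled WT, and Mcm5 and Rrm2, for replication licensing and nucleotide synthesis, had log2 fold changes of -1.04 and -1.09. The gene not called was Orc1, of the origin recognition complex (log2 fold change -0.46, adjusted p of 0.103 in edgeR). Tested against a 1.5-fold change, 12 of the 27 were called lower, against 3.53% of all genes. Of the 27, 12 held the E2F motif in the promoter window.

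**Figure D5:**
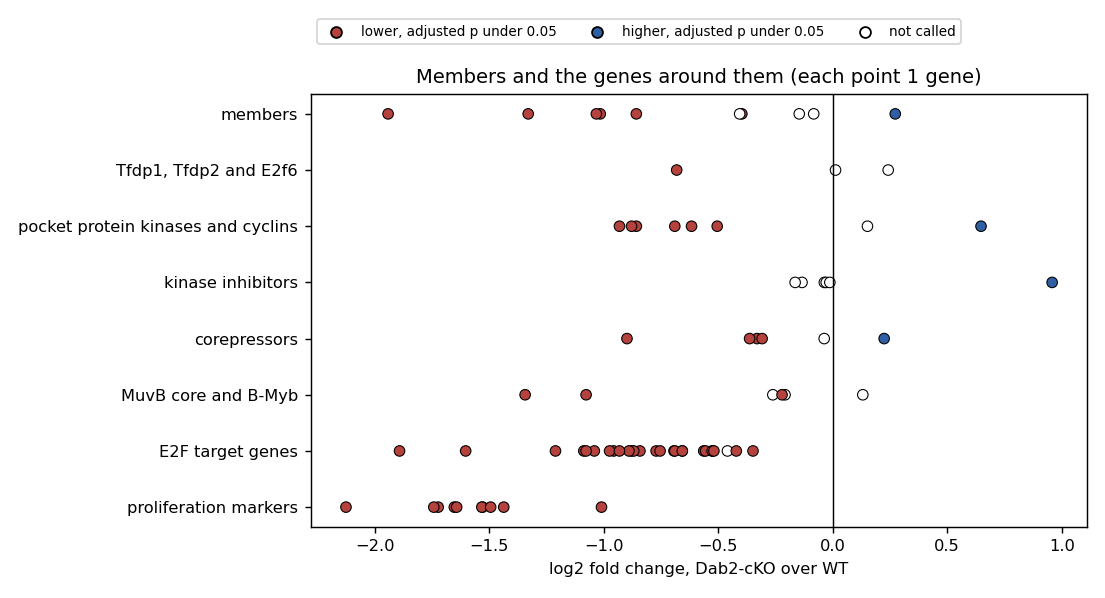
Log2 fold changes of Dab2-cKO over WT (x axis) for the 10 members, the other genes of the network by role, the E2F target genes and the proliferation markers, with 1 point per gene tested. Target genes lie between -1.89 and -0.35 and proliferation markers between -2.12 and -1.01, while the members spread from -1.94 to 0.27.

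Markers of cell state and of other cell types differed with the same labels. Over all genes tested, the shares were 11.5% lower and 16.8% higher. All 10 proliferation markers were lower, with Mki67 at 6162 ± 346 and 1413 ± 55.4 normalized counts (SD, n = 3 each, log2 fold change -2.12). Their summed share of the counts was 0.139% to 0.14% in WT and 0.0282% to 0.0291% in Dab2-cKO. All 11 tested markers of the hair shaft and inner root sheath were lower (2.93% to 3.23% of the counts in WT and 0.028% to 0.0294% in Dab2-cKO), as were all 7 of the hair germ and anagen progenitors (0.0502% to 0.0535% and 0.00498% to 0.0054%) and all 6 of melanocytes (0.0368% to 0.0376% and 0.00799% to 0.00869%). Markers of fibroblasts were higher, all 6 of them (1.29% to 1.44% and 3.17% to 3.46%), as were all 5 of endothelial cells (0.0126% to 0.0136% and 0.0331% to 0.0346%) and 5 of 7 rows of immune markers, in which Itgam stands under 2 gene IDs (0.0151% to 0.0152% and 0.0436% to 0.0452%). Of the 6 markers of interfollicular epidermis, 5 were higher and 1 was lower (0.135% to 0.145% and 0.394% to 0.406%). Of the 10 markers listed for the bulge, 7 were higher and 3 were lower (Sox9, Lhx2 and Lgr5). Their summed shares were 0.243% to 0.255% and 0.294% to 0.313%. Cd34 and Itga6 of the sort were among the 7. So were Krt14 and Krt5, keratins of basal keratinocytes in general, with the highest normalized counts of the list in both groups. The summed shares of this list are thus not of the bulge alone. No marker was at 0 in any library. In both groups the fibroblast markers had a larger summed share than the bulge list. Markers of the hair shaft and inner root sheath did so in WT, and those of interfollicular epidermis in Dab2-cKO. The values given here are therefore those of the sorted samples and cannot be assigned to HFSCs alone. The part of these differences in the results on RB and E2F genes was not tested, and in such bulk samples fewer cells of a type and less RNA per cell cannot be told apart.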

How the data were processed

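Total RNA (5 ng) of cells sorted as HFSCs was made into libraries with a SMARTer stranded kit. Per the labels and the paper's methods, the authors processed reads with fastp 0.23.4, aligned them to GRCm39 with HISAT2 2.2.1 and counted them with featureCounts 2.0.6. The deposited table holds raw counts per gene. A deposited table of the authors' own DESeq2 comparison was not used. Sample groups came from the labels.

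Counts were filtered with edgeR 4.0.16 (filterByExpr), scaled by TMM and compared in R 4.3.3 by the quasi-likelihood test with robust dispersions and Benjamini-Hochberg adjustment over all genes tested. Standard errors are the log2 fold change over the root of the F statistic. Normalized counts are counts over the effective library size, times the mean of these sizes. The fit was tested on simulated data. Exon lengths, coordinates and overlaps came from GENCODE vM39, which held 56323 of the 56941 genes. The alternatives were DESeq2 1.42.0, other scalings and filters, a replicate block, leaving out each library, and a test against a 1.5-fold change. Named genes were the members, the listed genes of the network and targets, Dab2, Mki67, and the 3 genes most like the member of each role with the highest mean level per kb. Markers and opposite-strand genes named beside them were chosen after their values were seen. The members and lists were chosen with earlier results of these data known. The promoter stretch of E2f8 is not reported here.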

Additional observations from a re-analysis of the deposited data

How the results depend on the processing

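E2f2, E2f3, E2f7, E2f8 and Rbl1 were called lower in all 14 alternatives run, and Rb1 in 13, all but the test against a 1.5-fold change. Signs turned for 3 members. Rbl2 was at -0.157 with library size alone. Leaving out 1 library gave E2f4 values from -0.159 to 0.027 (the latter without WT replicate 2) and E2f1 values from -0.262 to 0.032 (the latter without WT replicate 3). No member (0) was called higher with upper-quartile scaling, with library size alone, with a mean count of at least 50, in the test against a 1.5-fold change and without WT replicate 2, Dab2-cKO replicate 1 or Dab2-cKO replicate 3, so that leaving out 1 library gave 0 to 1 higher and 6 to 7 lower. Genes lower over the whole table numbered 5561 with upper-quartile scaling, 11168 with library size alone (2686 higher) and 1136 in the test against a 1.5-fold change (2222 higher). Genes of the network numbered 23 lower and 1 higher with library size alone and 4 lower and 0 higher in the test against a 1.5-fold change, where 12 target genes were lower. Without division by exon length, the difference in the log2 ratio of activators to pocket proteins was -1.06 in place of -0.88. The test against a 1.5-fold change calls fewer genes by construction, and for the other settings the cause was not tested. With the replicate number as a replicate block, 3620 genes were lower and 5347 higher, with 6 members lower and 1 higher. Same-numbered libraries correlated at 0.008 to 0.023 in their deviations from the group means, each best with its own number. All these correlations were small, and the libraries were taken to share a number and no more. The low counts of E2f1 and E2f5 limit the differences that could be detected for them.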

Other observations

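Across the protein-coding genes tested, 584 held the E2F motif in the promoter window, and 23.8% of them were lower and 21.2% higher in the libraries labelled Dab2-cKO. Of the 18917 without it, 15.2% were lower and 25.0% higher. With the members left out, 23.1% of the 577 genes with the motif were lower. The median log2 fold changes were -0.02 with the motif and 0.04 without it.

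For the member of each role with the highest level per kb averaged over both groups, the most similar genes were sought by the root mean square difference of their log2 CPM over the 6 libraries, each centred on its mean, among 10846 genes with a mean of at least 100 normalized counts. Rbl1 and E2f2 lead their roles in WT but not in Dab2-cKO, where Rbl2 and E2f1 are highest. Nearest to E2f2 were Adh6b (0.10), Hist1h3d (0.10), a replication-dependent histone gene, and St14 (0.10). Nearest to E2f8 were Dbf4 (0.05), which activates the replication kinase Cdc7, Ivl (0.05) and Dtnb (0.05). Ston2 (0.03), Rangap1 (0.05) and Map3k5 (0.05) were nearest to Rbl1, and Gm43154 (0.04), Psmc5 (0.05) and Epc2 (0.05) to E2f4. With 6 libraries in 2 groups, nearness over the libraries and a like difference between the groups cannot be told apart.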
